A study of Drosophila melanogaster with 2 samples.

Results

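The genes described here encode RNA polymerase subunits, general transcription factors, TFIID subunits and Mediator subunits of Drosophila melanogaster. They were chosen by symbol among the protein-coding genes of Ensembl release 115. A gene was taken when its symbol began with Polr1, Polr2, Polr3 or TfII, was Taf or MED followed by a number, or was Tbp. This gave 80 genes among 13968 protein-coding genes on the chromosome arms, with 7 for Pol I, 13 for Pol II, 10 for Pol III, 9 for general factors, 16 for TFIID and 25 for Mediator. The study mapped CG14667, a zinc-finger protein, by chromatin immunoprecipitation and sequencing. Whole embryos aged 0 to 24 h came from a transgenic strain in which CG14667 is fused to eGFP, and an anti-GFP antibody pulled down chromatin sonicated to fragments of 200 to 800 bp. Both libraries, biological replicates 1 and 2, carry the same fusion and form 1 group, so there was no condition to compare. Such embryos mix every tissue and stage of that window, so a peak cannot be given to a cell type, and the tagged protein was measured in place of the untagged one.

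Pol I, Pol II and Pol III transcribe ribosomal RNA, messenger RNA and small structural RNAs such as transfer RNA. General factors and TFIID, which is built from TBP and its associated factors (TAFs), place Pol II at a promoter, and Mediator relays signals from DNA-bound activators to it. These genes are used in nearly all dividing cells of an embryo, and in flies many such housekeeping genes lie head to head with a neighbour, so that both are read outward from 1 shared promoter region.

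CG14667-eGFP peaks lay at the starts of 19 of the 80 genes (23.8%, 95% Wilson interval 15.8% to 34.1%, which covers counting error only). Of all protein-coding genes 12.6% were bound, 1755 of 13968. A gene was called bound when a summit of the authors' conservative list, the stricter thresholded list of the series, lay within 500 bp of one of its annotated starts. The call is one of position and does not say that CG14667 changes the gene's expression. Members that shared their peak with another protein-coding gene made up 16 of the 19, which is 20.0% of the 80 against a background of 7.50%. Members alone at a peak were Polr2F, Taf4 and MED4, which is 3.75% of the 80 against a background of 5.07%. Of the bound members 84.2% shared their peak, against 59.7% of all bound protein-coding genes, and the share of members alone at a peak was near the background. These shares are set side by side as descriptions, with no test. The 19 members lay at 19 different peaks, and none was reached by a further peak.

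The DNA under several of these summits is shown because it gives the range of base composition among them, at shared and at lone peaks. Each stretch runs 5′ to 3′ on the strand of the named gene, from 50 bp before to 50 bp after the summit, with annotated exon bases left off. Capitals mark unbroken runs of at least 6 A or T bases. The bases come from the RefSeq copy of the Release 6 genome, which has the coordinates of dm6. The first 6 belong to peaks shared with a head-to-head neighbour, at chr3R:5654935-5655035 on the plus strand for MED27, chr3R:27253214-27253314 plus for TfIIA-L, chr3R:14125667-14125767 plus for Polr2B, chr2L:17410464-17410564 minus for Polr2J, chr3R:18188916-18189016 plus for MED17 and chr3R:10761054-10761147 minus for MED7.
MED27: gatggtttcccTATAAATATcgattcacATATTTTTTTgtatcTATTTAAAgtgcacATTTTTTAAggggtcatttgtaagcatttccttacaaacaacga
TfIIA-L: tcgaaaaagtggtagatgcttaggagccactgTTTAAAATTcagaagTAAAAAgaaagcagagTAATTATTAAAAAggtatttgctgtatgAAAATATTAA
Polr2B: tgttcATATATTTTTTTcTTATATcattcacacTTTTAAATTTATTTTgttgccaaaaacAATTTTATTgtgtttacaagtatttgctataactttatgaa
Polr2J: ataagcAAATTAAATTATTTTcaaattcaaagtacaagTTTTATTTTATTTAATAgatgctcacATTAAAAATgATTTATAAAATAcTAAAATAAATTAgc
MED17: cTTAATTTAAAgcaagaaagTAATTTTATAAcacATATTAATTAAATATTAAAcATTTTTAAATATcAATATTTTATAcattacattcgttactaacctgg
MED7: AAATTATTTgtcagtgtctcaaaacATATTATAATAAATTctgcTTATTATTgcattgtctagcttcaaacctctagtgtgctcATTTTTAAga
In Polr2J 64.4% and in MED17 62.4% of the bases sit in such runs. A further 3 hold fewer such bases, TfIIB at chr2L:10430944-10431044 plus, which shares its peak, and Polr2F at chr3R:5371745-5371794 plus and Taf4 at chr3L:16113637-16113737 plus, which do not.
TfIIB: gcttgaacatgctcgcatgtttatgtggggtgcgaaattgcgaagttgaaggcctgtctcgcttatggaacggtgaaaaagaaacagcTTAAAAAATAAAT
Polr2F: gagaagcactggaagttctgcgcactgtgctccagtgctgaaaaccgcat
Taf4: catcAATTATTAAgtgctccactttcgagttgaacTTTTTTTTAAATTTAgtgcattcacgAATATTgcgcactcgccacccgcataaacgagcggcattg
The 50 bases left for Polr2F hold no such run, and those of TfIIB hold them only at the 3′ end. Taf4, though alone at its peak, has 29.7% of its bases in runs, so lone peaks are not free of them. The stretches printed are a selection. Shared peaks not printed ran from 5.94% of the window in such runs at MED16, through 26.7% at Polr3E and 29.7% at MED30, to 65.3% at Taf5.

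The shares of genes bound overlapped between the complexes. Mediator had 8 of 25 (32.0%, Wilson interval 17.2% to 51.6%) and Pol II 4 of 13 (30.8%, 12.7% to 57.6%). The general factors had 2 of 9 (22.2%, 6.32% to 54.7%), Pol III 2 of 10 (20.0%, 5.67% to 51.0%) and TFIID 3 of 16 (18.8%, 6.59% to 43.0%). None of the 7 genes with a Pol I symbol was bound, which with so few genes allows a share of up to 35.4%. Each gene is counted under the complex of its symbol. Polr2H and Polr2F, whose products are common to Pol I, Pol II and Pol III, thus count for Pol II alone. All 6 intervals overlap, so the order of the complexes is a description, and the members of 1 complex are single genes and not replicates of it.

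**Figure D1:**
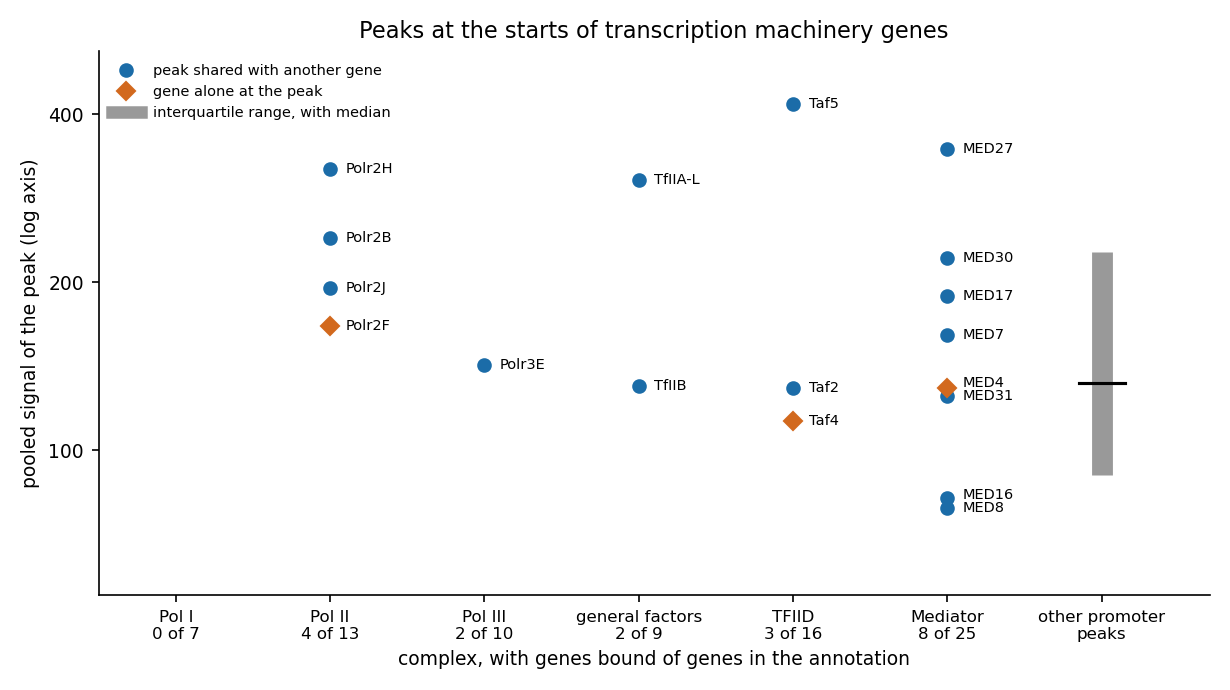
Pooled signal of the peaks of 18 bound members (log axis) by complex, with the number bound of the number of genes under each name; blue circles share the peak with another protein-coding gene and orange diamonds do not. The grey bar is the interquartile range of 1285 peaks at other protein-coding starts, 90.3 to 227, with their median of 132 as a line, and Taf5, MED27, Polr2H and TfIIA-L lie above 300 while MED16 and MED8 lie under 90.

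Peak strength is given as the authors' signal, a value their peak caller set against a control on a scale that is not stated, so it serves only to rank peaks. Over the 19 member peaks the pooled signal had a median of 161, an interquartile range of 127 to 230.1 and a highest value of 418, and 15 of them stood above the median of the whole list, 115. The 1285 peaks at other protein-coding starts ran from 2.20 to 2115 with a median of 132, so the members were found neither among the very strongest nor among the weakest peaks. Shared member peaks had a median of 175 (n = 16, interquartile range 128 to 256) and the lone ones of 129 (n = 3, 113 to 167). These ranges overlap.

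Pol II was bound at Polr2H, Polr2B, Polr2J and Polr2F. Polr2H, which encodes a subunit common to Pol I, Pol II and Pol III, had a pooled signal of 319 on 3L at 21728672 to 21728861, with 141 in replicate 1 and 181 in replicate 2. Its summit fell 170 bp upstream of Polr2H and 44 bp inside CG11247, in the 5′ UTR of that neighbour. Polr2B, a large catalytic subunit, had 239.6 on 3R at 14125549 to 14125884, with 121 and 117 in replicates 1 and 2, 74 bp upstream of its start and 169 bp upstream of 140up, its head-to-head neighbour. Both replicates thus placed these genes high and close together.

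Polr2J encodes a core subunit that pairs with Polr2C. Its peak, on 2L at 17410507 to 17410591, had 195 pooled, 89.6 in replicate 1 and 109 in replicate 2, and lay nearly midway between Polr2J and CG15141, 108 and 127 bp upstream of them. Polr2F, whose product is also common to all 3 polymerases, was the only Pol II gene alone at its peak. That peak, on 3R at 5371577 to 5371912, had 167 pooled with 69.2 and 106 in replicates 1 and 2, and its intergenic summit lay 50 bp upstream of Polr2F. It was also the conservative summit nearest to the start of CG14667 itself, at 3277 bp.

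Polr3E encodes a subunit that is particular to Pol III. It had a pooled signal of 142 on 3L at 21031387 to 21031722, with 75.9 and 56.1 in replicates 1 and 2, and both replicates held it in their own lists. The summit lay between Polr3E at 270 bp and CG10584 at 195 bp, so the neighbour's start was the closer one.

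The general factors bound were TfIIA-L, the large TFIIA precursor that steadies TBP on DNA, and TfIIB, which links the TBP-bound promoter to Pol II. TfIIA-L had 305 pooled on 3R at 27253175 to 27253354, with 175 in replicate 1 and 129.5 in replicate 2. Its summit lay in an intron of TfIIA-L, 166 bp upstream of the start used and 82 bp upstream of pll, the kinase gene pelle of the Toll pathway. When each gene was given its most upstream start alone, TfIIA-L was no longer bound. TfIIB had 130.4 on 2L at 10430826 to 10431161, with 84.6 and 44.4 in replicates 1 and 2. Its summit was 344 bp upstream of TfIIB and only 76 bp upstream of Bug22, a gene of cilia, so the neighbour's start was the closer one.

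TFIID was bound at Taf5, Taf2 and Taf4. Taf5, a scaffold subunit with WD40 repeats, carried the strongest member peak, 418, on 2R at 10879730 to 10879943. It had 186 in replicate 1 and 229 in replicate 2 and lay between Taf5 at 160 bp and Pex6, a peroxisome assembly gene, at 141 bp. Taf2, which touches promoter DNA around the start, had 129 on 3L at 9888701 to 9889036, with 87.1 and 55.5. Its summit was 186 bp upstream of Taf2 and 107 bp inside the calpain gene CalpB, in that gene's 5′ UTR.

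Taf4, another TFIID scaffold, was the member with the least replicate support. Its peak on 3L at 16113519 to 16113854 had 113 pooled, no peak in replicate 1 and 36.6 in replicate 2's ranked list, and it was in neither replicate's own thresholded list. The summit lay in an intron of Taf4, 103 bp upstream of the start used, with no other protein-coding start within 500 bp.

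Mediator was bound across its modules. In the tail, MED27 had 347 on 3R at 5654909 to 5655120, with 166 and 179.9 in replicates 1 and 2, 154 bp upstream of MED27 and 124 bp upstream of elm. MED16, also a tail subunit, had 81.9 on 2R at 22182948 to 22183283, with 53.2 in replicate 1 and 28.0 in replicate 2, the latter below that replicate's own threshold. Its summit lay 22 bp upstream of MED16, the closest of all members, and 237 bp upstream of CG11170.

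Head subunits were represented by MED30, MED17 and MED8. MED30 had 221 on 3L at 654112 to 654447, with 133 and 94.0, 191 bp upstream of MED30 and 83 bp upstream of Rev1, a gene of translesion DNA synthesis. MED17, the scaffold of the head, had 189 on 3R at 18188798 to 18189133, with 99.7 and 92.3, 106 bp upstream of MED17 and 259 bp upstream of CG12321. MED8 had 78.8 on 2R at 20326994 to 20327329, with 35.0 below the threshold in replicate 1 and 37.4 in replicate 2. It had the most distant summit of any bound member, 356 bp upstream of MED8 and 108 bp upstream of CG8929.

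Middle subunits were represented by MED7, MED4 and MED31, all present in both replicates' own lists. MED7 had 161 on 3R at 10760936 to 10761271, with 80.6 and 73.7, 72 bp upstream of MED7 and 206 bp upstream of the condensin gene Cap-H2. MED4 had 129 on 3L at 7250528 to 7250863, with 71.1 and 62.2, 169 bp upstream of MED4. It shared its peak with no protein-coding gene, but the summit lay 56 bp inside the antisense RNA asRNA:CR43470. MED31 had 125 on 3R at 4641661 to 4641996, with 58.2 and 67.8, and was the member with the most neighbours. Its summit was 134 bp upstream of the start annotated for both MED31 and slx1, a nuclease subunit gene, and 9 bp inside CG9775, in the 5′ UTR.

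**Figure D2:**
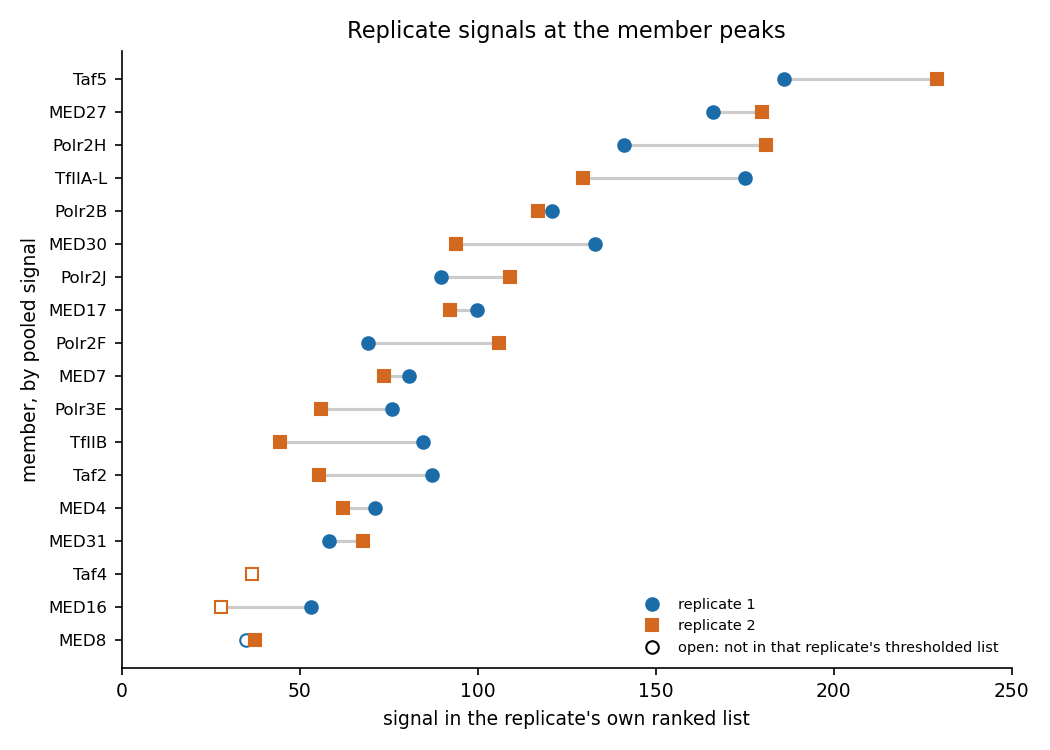
Signal of the peaks of 18 bound members in replicate 1 (circles) and replicate 2 (squares), each read from that replicate's own ranked list, with members in order of pooled signal; open symbols were below the replicate's threshold and a missing symbol means no peak. The 15 strongest members are in both replicates' own lists, and Taf4, MED16 and MED8, with pooled signals of 113 and below, each miss at least 1 of them.

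The replicates gave similar values at member peaks. Replicate 1 ran from 35.0 to 186 with a median of 85.8, and replicate 2 from 28.0 to 229 with a median of 83.0. The log2 ratio of replicate 1 over replicate 2 had a median of 0.11 and an SD of 0.45 over the 17 members measured in both, from -0.61 at Polr2F to 0.93 at TfIIB and MED16. The other promoter peaks had a median of 0.21 and an SD of 0.45 (n = 1258), so the spread was the same to the digits given. Of the member peaks 15 of 19 (78.9%) were in both replicates' own lists, against 822 of 1285 (64.0%) of the other promoter peaks. The depth of the libraries is unknown, since peak lists hold no read counts.

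The summits stood upstream of the nearest start of each bound member. Their distances ran from 22 to 356 bp with a median of 160 bp, and all 19 lay on the upstream side of that start, against 1560 of 1736 (89.9%) of the other bound genes, which had a median of 139 bp. Taf4 and TfIIA-L have a further annotated start on the other side of the summit, 475 and 2152 bp away. All 16 sharing members had a neighbour transcribed in the opposite direction, head to head. In 13 of them the summit fell between the starts of the pair, which were 235 to 465 bp apart with a median of 278 bp. The exceptions were Polr2H, Taf2 and MED31, where the summit lay just inside the neighbour. The member's own start was the nearest one in 5 of the 16, namely Polr2B, Polr2J, MED17, MED7 and MED16, and the neighbour's start was nearer in 11.

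**Figure D3:**
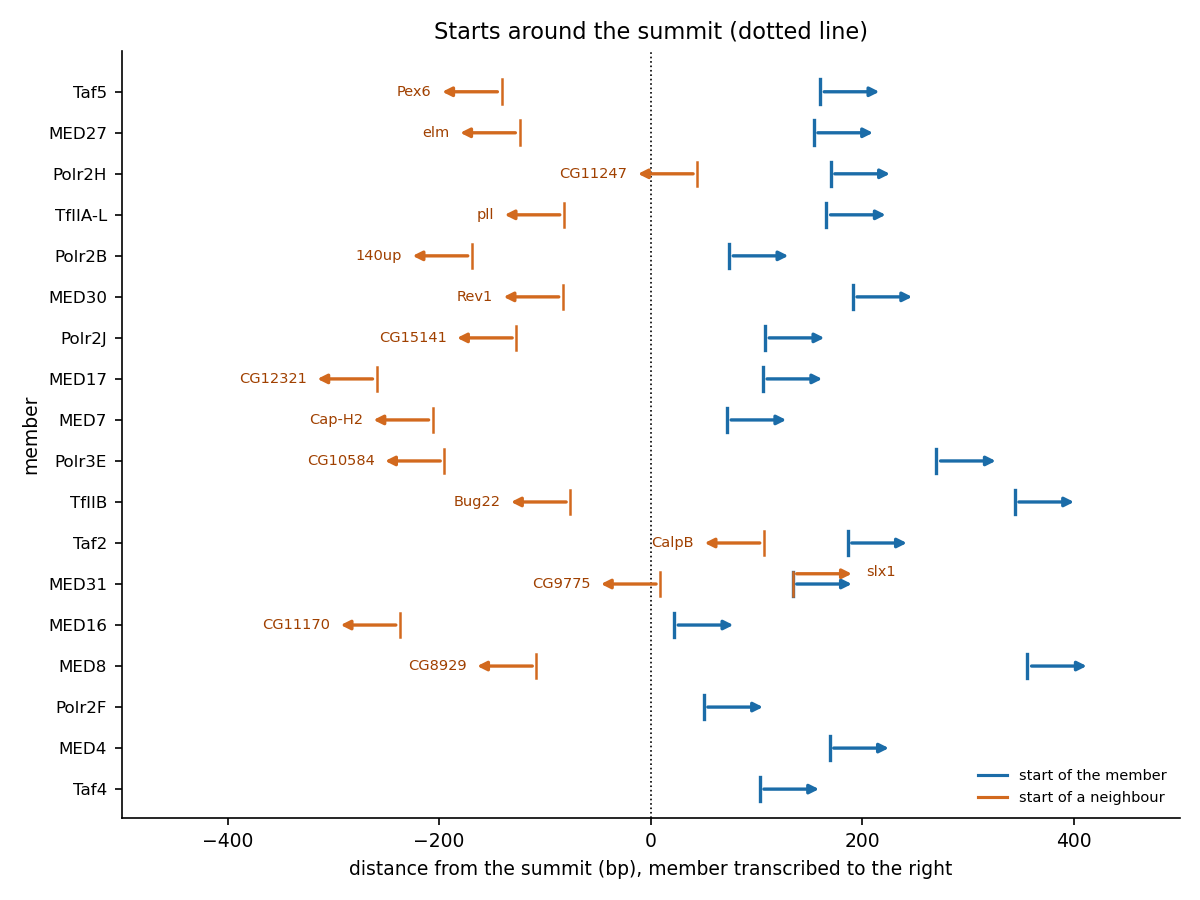
The nearest annotated start of each gene around the summits of 18 bound members (dotted line at 0 bp), with each member drawn as transcribed to the right; blue ticks and arrows mark the member and orange ones the neighbours within 500 bp. The blue start used for each member lies right of the summit, and the head-to-head neighbours of 12 of the 15 sharing members drawn lie left of it.

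The arrangement of the starts went together with the share bound. A head-to-head neighbour within 1000 bp was annotated for 55 of the 80 members (68.8%) and for 5052 of 13968 protein-coding genes (36.2%). With such a neighbour 17 of 55 members were bound (30.9%), against a background of 23.2%. Without one, 2 of 25 members were bound, Polr2F and MED4, against a background of 6.54%. Had each class been bound at its background share, 14.4 members would have been bound, so the count of 19 was nearer to this background than to that of all genes. The 55 were spread over the complexes, with 19 of 25 in Mediator, 12 of 16 in TFIID, 7 of 10 in Pol III, 8 of 13 in Pol II, 4 of 7 in Pol I and 5 of 9 among the general factors.

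**Figure D4:**
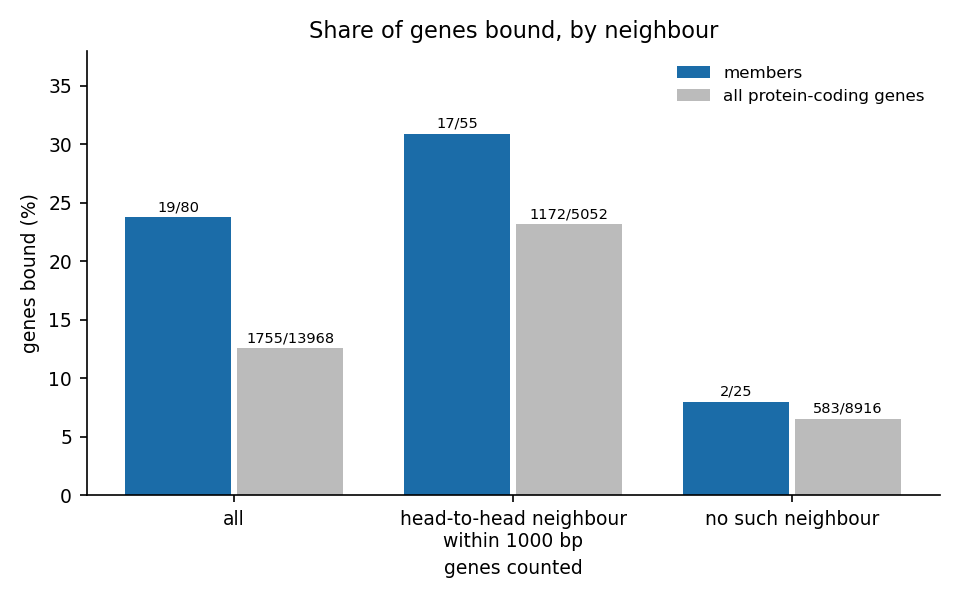
Share of genes bound (bars from 0, percent, with bound and total counts above each) for the members in blue and for all protein-coding genes in grey, over all genes and split by a head-to-head neighbour within 1000 bp. The bars differ by 23.8% against 12.6% over all genes, by 30.9% against 23.2% with a neighbour and by 2 of 25 against 6.54% without one.

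The share bound also differed with the distance between the head-to-head starts. With 100 to 499 bp between them, 15 of 35 members were bound (42.9%), against 27.9% of protein-coding genes. At 0 to 99 bp the share was 1 of 13 (7.69%) against 18.3%, and at 500 to 1000 bp 1 of 7 (14.3%) against 15.2%. In the middle class the members' share was thus above the background, as a description without an interval. The bound member at 500 to 1000 bp is Taf4, whose peak does not lie at that pair. With very close or more distant pairs, 1 bound of 13 and 1 of 7 are too few to set apart from the background. Taf10 and Taf10b, TFIID genes that form such a close pair with each other, were both unbound. They share a candidate peak with a pooled signal of 35.8 that missed the threshold. When every peak counted for a single gene, the one whose start was closest, 8 of the 80 members remained bound, against a background of 8.79%. The members' share was then near the background.

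By chromosome, 7 of 19 members on 3L, 7 of 25 on 3R, 3 of 11 on 2R and 2 of 15 on 2L were bound, where the counts over all protein-coding genes were 381 of 2739, 451 of 3421, 343 of 2852 and 316 of 2657. None of the 8 members on X was bound, among them Polr2A, the largest Pol II subunit gene. Of all protein-coding genes on X, 263 of 2196 were bound, so with only 8 members there a count of 0 says little. The Pol III genes Polr3A and Polr3I, the TFIID genes Taf8 and Taf9, the Mediator genes MED18 and MED22, and the TFIIA gene TfIIA-S-2 are the others on X. MED26 and Taf3 on chromosome 4 were unbound as well, where 1.25% of protein-coding genes were bound. Among the further machinery genes described below, Ada3, e(y)2, Spt6 and TH1 lie on X and were bound. No share by chromosome is given for that list.

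The 61 unbound members did not lie just beyond the limit. None had a conservative summit between 500 and 1000 bp from a start, and the nearest were Taf12 at 1457 bp, Polr1D at 1463 bp and TfIIEalpha at 1530 bp. The median distance was 9297 bp, 30 members were over 10000 bp away, and MED21 was the farthest at 751571 bp. Among the bound, MED8 at 356 bp was the nearest to the limit. The 500 bp limit therefore falls in a gap among the members.

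Weaker candidates, peaks of the authors' ranked list that missed the conservative list, lay at starts of 27 of the 61 (44.3%), against 7447 of 12213 unbound protein-coding genes (61.0%). The strongest was at TfIIA-S, the small TFIIA subunit, with a pooled signal of 85.9, which is above those of MED16 and MED8. Its global IDR, the expected share of irreproducible peaks among those ranked as high, was 0.0065 and met the limit of 0.01, yet the peak is not in the conservative list. The next were Polr2C with 60.4 (IDR 0.066), Polr3C with 45.7 (0.10), Polr2I with 43.0 (0.34) and Polr2A with 42.0 (0.27). MED6, with a candidate of 41.0, was the only unbound member with a peak in a replicate's own thresholded list, that of replicate 1. Tbp had a candidate of 29.3 and Taf1, the largest TFIID subunit gene, none.

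Base composition dropped at the summits. Within 50 bp of the summit the 19 member peaks held 29.4% GC on average, against 47.6% in windows centred 300 bp to either side, a difference of -18.2 percentage points (SD 10.9, SE 2.50, n = 19). The other promoter peaks differed by -11.6 points (SE 0.370, n = 1285). With flanks centred 200 bp away the values were -9.82 points (SE 2.27) for the members and -9.12 points (SE 0.337) for the others, within 1 SE of each other, so the deeper drop at the members was seen only against more distant flanks. The summit was poorer in GC than the flanks at 18 of the 19 members, and TfIIB, at 0.990 points above its flanks, was the exception. Bases in A or T runs made up 36.0% of the member windows and 29.4% of the other promoter windows.

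Within the members, shared and lone peaks differed in the same direction as elsewhere. The 16 shared peaks had a difference of -20.4 points (SE 2.60) and the 3 lone ones of -6.44 points (SE 2.49). With flanks at 200 bp the values were -11.1 points (SE 2.31) and -2.97 points (SE 7.21). At other promoters and 300 bp they were -15.0 points (SE 0.563, n = 514) for shared peaks and -9.30 points (SE 0.473, n = 771) for lone ones. With flanks at 200 bp these other promoters had -9.64 points (SE 0.474) and -8.78 points (SE 0.463), so the contrast there was small. With flanks at 400 bp the member values were -20.5 points (SE 2.76) for shared and -12.4 points (SE 3.22) for lone peaks. The size of the contrast thus depended on the flank. The shared member windows ranged from 15.8% GC at Taf5 and Polr2J, through 17.8% at MED17 and Taf2 and 19.8% at Polr2B, to 41.6% at TfIIB and 46.5% at MED16. Among the lone ones MED4 had 32.7%, Taf4 40.6% and Polr2F 46.5%, and with 3 genes this contrast remains a description. A and T runs took 65.3% of the window at Taf5, 64.4% at Polr2J and 62.4% at MED17, but 5.94% at the shared MED16, 29.7% at the lone Taf4 and 24.8% at the lone MED4, so shared and lone peaks overlapped.

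**Figure D5:**
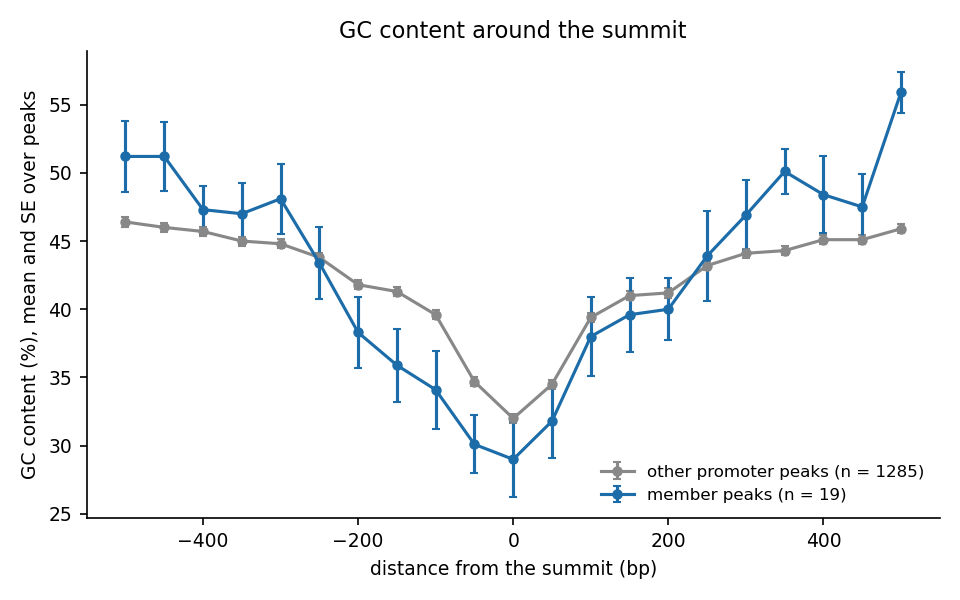
Mean GC content (percent) with SE over peaks, in windows of 25 bp to either side of each position, against distance from the summit on the plus strand; blue points are the 19 member peaks and grey points the 1285 other promoter peaks. Both dip at the summit, to 29.0% (SE 2.73) and 32.0% (SE 0.323), and the members stand higher 500 bp away, at 51.2% and 55.9% against 46.4% and 45.9%.

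Known promoter words were at member summits in shares near those of other promoter peaks. Each was searched on both strands within 50 bp of the summit, and a match describes letters, not a bound site. The TATA word TATAAA was at 6 of 19 member summits (31.6%), those of Taf5, MED27, Polr2H, Polr2J, MED17 and MED8, against 26.1% of the other promoter peaks and 24.1% of all 3029 conservative peaks on the arms. This share moved with the settings, to 5.26% within 25 bp of the summit and to 8 of 16 without replicate 1. CGATA, part of the site of the insulator protein BEAF-32, was at 3 (15.8%), those of MED27 and Polr2F among them, against 18.6% and 14.3%, and fell to 5.26% within 25 bp and 6.25% without replicate 1. The homeodomain core TAATTA was at TfIIA-L and MED17 (10.5%), against 10.7% and 10.1%, and GTATNTTT, the core of a promoter element called motif 6, at Taf2 (5.26%), against 5.21% and 4.95%, and at no member summit without replicate 1.

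No member window held the DNA replication-related element TATCGATA, the motif 1 core GGTCACAC, the E-box CAGCTG or GAGAG. They were at 2.02%, 0.778%, 2.88% and 6.61% of the other promoter peaks and at 1.02%, 0.462%, 2.54% and 7.56% of all conservative peaks. With 19 windows and shares this low, their absence says little. Within 100 bp of the summit TATCGATA and CAGCTG were each at 5.26% of member summits and GAGAG at 10.5%. TATCGATA contains CGATA, so those counts overlap. The 10 words of 8 bases most frequent at the 3010 summits away from the members, compared with their flanks, consisted of A and T only, led by ATATTTAA, and several overlap each other. At least 1 of them was at 7 of 19 member summits (36.8%) and at 492 of 1285 other promoter summits (38.3%). The share of member summits with such a word was thus close to that elsewhere, although their windows held more A and T runs.

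Other genes of the transcription machinery that the symbols do not cover behaved alike in number. From a list of 69 symbols 62 were in the annotation, and 17 of them were bound (27.4%), against the same 12.6%. At a shared peak were 15, and 2, Ada2b and dre4, were alone, where the backgrounds were 7.50% and 5.07% of all protein-coding genes. For this list no share was computed by head-to-head neighbour or for the nearest gene only. TFIIH, which opens the promoter, had 3 of 9 bound, with the strongest peak of the list at Ssl1 (1322, shared with Chro), then Xpd (95.0) and Tfb5 (63.8). TFIIIB, the Pol III initiation factor, and TBP-related genes had 2 of 4, Brf (381) and Bdp1 (314). The Mediator kinase module had 1 of 4, skd (156). Pol I factors had 0 of 2 and other TAF symbols 0 of 4.

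SAGA, a coactivator that acetylates histones, had 5 of 16 bound. These were Gcn5, its acetyltransferase (270.2), wda (262), Ada3 (113), Ada2b (93.3, with the summit 430 bp inside the gene) and e(y)2 (87.3). Pausing and elongation genes had 6 of 23, namely the NELF subunit gene TH1 (415, shared with mei-41), Nelf-E (199.8, shared with the ribosomal protein gene RpL14), Cdk12 (195), EloB (117), Spt6 (91.1) and dre4 (85.4). Of the 7 symbols without a match, Tfb2, Brf1, bip2, e(y)1, rye, Paf1 and Spt4, no value is given under that symbol. The match was by current symbol only. Such a symbol can be another name of a gene that is counted here already, among the members or in the list.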

How the data were processed

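Peak lists from 2 biological replicates, 1 group, were used. The authors deposited, for each replicate and for both together, ranked candidate peaks and thresholded lists on dm6. Each deposited peak has a summit offset and a signal, which the authors computed relative to a control. The ranked lists hold the deposited −log10 of the global IDR, converted here to IDR. The aligner, peak caller, versions and signal scale are not stated by any source used here. The sequencing depth is unknown, so signals carry no interval.

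Bound genes were called from conservative summits within 500 bp of any start in Ensembl release 115, with peaks on scaffolds left out and 1-based coordinates. Replicate signals are the largest overlapping peak in each replicate's ranked list. Shares carry 95% Wilson intervals. No test was run, since there is 1 group, and neighbouring genes that share a peak are not independent. GC content and words used windows of 101 bp on the RefSeq Release 6 sequence. Scripts in Python 3.11.15 with pandas 2.3.3, numpy 2.4.6 and scipy 1.17.1 were tested on simulated data.

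The members and lists were chosen with earlier results of these data known. The genes named are the bound members and their neighbours, except 1 whose own values are not reported here, the unbound members with the 5 largest candidate signals, and the bound genes of the further machinery list. MED6, MED21, Tbp, Taf1, Taf10 and Taf10b, the unbound members nearest to a summit, and those on X and 4 were chosen for naming with their values in view. The settings varied were the thresholded list (the longer one, or that of a single replicate), distances of 250 and 1000 bp, the nearest gene only, starts inside the peak, the stronger peaks of the list, the most upstream start, neighbours of any biotype, and windows of 25 and 100 bp. Chosen after seeing the data were the division by head-to-head neighbour and flanks at 200 and 400 bp. The classes of distance between the starts and the GC content at pair midpoints build on that division and were not planned either.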

Additional observations from a re-analysis of the deposited data

How the results depend on the processing

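The number of bound members was 18 in the other thresholded list, 16 to 18 when a replicate was left out, 16 at 250 bp, 19 at 1000 bp, 15 among the stronger peaks and 18 from the most upstream start, against 19. These are 18.8% to 23.8% of the members. The background of all protein-coding genes moved too, to 13.6% in the other list, 9.62% without replicate 1 and 11.4% without replicate 2. It was 9.74% at 250 bp, 14.9% at 1000 bp, 7.86% among the stronger peaks and 11.0% from the most upstream start. Without replicate 1 3 members were lost, MED16 and Taf4 among them, and without replicate 2 the list lost MED8 and Taf4 and gained MED6. The count fell furthest when a peak went to its nearest gene only, to 8 members (Pol III 0, general factors 0, TFIID 1, Mediator 4, sharing 5), and when a start had to lie inside the peak, to 7 (Pol II 2, Pol III 0, general factors 0, TFIID 1, Mediator 4, alone 6, sharing 1). Both reduce the reach by construction: the background went to 8.79% and 5.93%. Pol III had 1 bound gene in the other list, at 250 bp and among the stronger peaks, and 1 to 2 when a replicate was left out. General factors had 1 at 250 bp and 1 from the most upstream start. Among members without a head-to-head neighbour 2 were bound. The GC difference stayed between -19.4 and -9.82 points, the smallest with flanks at 200 bp. Of 90 recomputed motif and word shares, 86 stayed inside the interval of the value reported. The 4 that did not were TATAAA and CGATA at 25 bp (5.26% each), AAATATAT at 25 bp and motif 6 without replicate 1 (0 each). Unknown depth, a mixture of tissues and counts of 0 to 8 per complex limit what these lists can show.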

Other observations

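The region between the starts of a head-to-head pair can be described from the annotation alone, without a peak. At the midpoint of the closest pair, the 17 bound members held 27.5% GC within 50 bp, and differed by -19.5 percentage points (SE 3.15) from the windows 300 bp to either side. For TfIIA-L (starts 105 bp apart) and Taf4 (586 bp apart) the closest pair is not at the peak, so their midpoints describe other DNA. The 38 unbound members held 33.7%, with a difference of -14.1 points (SE 2.35) and a median distance between the starts of 176 bp, against 278 bp for the bound ones. Among other protein-coding genes the difference was -15.3 points (SE 0.391, n = 1155) for bound and -10.9 points (SE 0.201, n = 3842) for unbound genes. These counts are of genes, and both genes of a pair can enter with the same midpoint, as Taf10 and Taf10b do. The SEs of the other genes are therefore too small. Neighbours of members are among the other genes, so the groups overlap in regions. The midpoint was poorer in GC than its flanks at 15 of the 17 bound and 29 of the 38 unbound members.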
